A study of Mus musculus with 12 samples.

Results

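Homologous recombination and the Fanconi anemia pathway were followed through 35 genes in RNA-seq libraries of mouse prostate organoids. The 35 genes were taken by name, and all of them are among the 43243 gene names of the deposited values. They comprise 5 mediators (Brca1, Bard1, Brca2, Palb2, Brip1), 5 recombinase paralogs (Rad51b, Rad51c, Rad51d, Xrcc2, Xrcc3), 3 annealing and motor proteins (Rad52, Rad54l, Rad54b) and 5 genes of end resection (Mre11a, Rad50, Nbn, Rbbp8, Exo1). The others are 3 genes of junction processing (Blm, Slx4, Mus81), 8 of the Fanconi core complex (Fanca, Fancb, Fancc, Fance, Fancf, Fancg, Fancl, Fancm), the pair Fancd2 and Fanci, and 4 checkpoint kinases (Atm, Atr, Chek1, Chek2).

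Homologous recombination repairs a broken chromosome by copying the intact sister chromatid. The ends are first trimmed to single strands, on which the mediators place a recombinase filament that searches for the matching sequence. The Fanconi proteins act where the strands of DNA are crosslinked to each other: a core complex attaches ubiquitin to FANCD2 and FANCI, and the lesion is then cut out and passed on to recombination. Both routes work mainly in cells that replicate DNA, and many of these genes are transcribed most in dividing cells. SPOP, which picks the substrates of a cullin ubiquitin ligase, is often mutated in prostate cancer, and such mutations have been linked to impaired recombination.

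The libraries carry the labels SPOPmut (6) and SPOPwt (6), and those with the same number, from S0 to S5, were taken as a pair. By the labels' protocols, prostate cells from mice were grown in Matrigel with EGF at 5 to 50 ng/ml, and a CreERT2 recombinase was switched on overnight by 1 μM 4-Hydroxytamoxifen. The protocols give 5 pairs of a model A and 1 pair of a model B, but no label says which pair is model B. They describe a Line_A, infected with a CreERT2 virus and selected with puromycin, and a Line_B from mice with a TMPRSS2-CreERT2 transgene, and they name the mutant allele, R26F133V, only for lines with Probasin-driven Cre. Mutant cells were sorted by GFP and controls were sham sorted, so the mutant and the sort cannot be told apart. Ages, and whether controls received the tamoxifen, are not given in the labels. Whether each pair is a culture or animal of its own is not labelled, and p-values therefore describe the spread of these samples alone, which may be technical. Within each genotype, the libraries of S1 and S2 were far closer to each other than any others were, yet they count as separate pairs below.

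Depth was estimated at 28290000 to 40980000 reads a library, and 13012 to 13885 genes per library stood at 1 RPKM or more. RPKM divides reads by both the length of the transcript and the depth of the library, so levels can be compared between genes. Spop, the targeted gene, averaged 51.4 ± 3.66 RPKM in mutant and 46.0 ± 4.18 RPKM in control libraries (SD, n = 6) and was higher in the mutant of every pair; reads of the mutant copy and of the endogenous gene may both be in these values. Pair S5 stood apart. Over 8 of 8 basal markers found, the summed level was 2240 to 3230 RPKM in S5 and 7.16 to 16.0 in S0 to S4, where Krt5 and Krt14 were each listed at 0 in 2 of 10 libraries and were at most 0.241 and 0.201 RPKM in the others. The 10 luminal markers summed to 1530 to 1540 RPKM in S5 and to 51.4 to 175 in S0 to S4. The 12 fibroblast and smooth muscle markers summed to 2.87 to 4.63 RPKM in S5 and to 1370 to 2860 in S0 to S4, with Lum listed at 0 in both S5 libraries. In S0 to S4, labelled as prostate organoids, the basal markers Krt5, Krt14, Krt17, Dsc3 and Dsg3 thus stood at or near 0, while Itga6 was at 2.91 RPKM or more and Krt15 and Trp63 reached 8.15 and 2.28 RPKM.

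The stretches of DNA just before the starts of the genes were looked at for 3 short motifs linked to cell cycle transcription, because most members ordered the pairs much as the growth marker Mki67 did. RefSeq windows (GRCm38.p6) of 250 bases before to 50 bases after the start were at hand for 27 of the 35 members. For 28 of their 30 windows, the first bases after the start occur somewhere in a GENCODE M21 transcript of the gene, not always at its beginning. An E2F-type site was taken as TTTGGCGC, TTTCCCGC, TTTGCCGC or TTTCGCGC on either strand. It was found in 5 of 27 members (18.5%; Bard1, Brca2, Rad51c, Fancg and Chek2) and in 2.6% of the 27025 genes with a window. The CCAAT box (CCAAT, either strand) was found in 17 of 27 members (63.0%) against 41.1% of all genes. The CHR element (TTTGAA, either strand) was found in 2 of 27 members (7.41%; Bard1 and Rad51b) against 20.2%. A gene was counted once per motif, overlapping matches included, and a match describes the letters only. The stretches below show, in capitals, the E2F-type site of 4 of the 5 members that have one. That of Fancg is not printed, and its pair mean was higher in S3 (2.52 RPKM), a pair of low Mki67, than in S1 (1.93 RPKM). A link between sites and levels was not tested. Other stretches show the CCAAT box of Brca1, whose level was low in both pairs of low Mki67, and of Xrcc3, whose level was not. Each is written 5′ to 3′ on the strand of its gene, and capitals read GCGGGAAA or ATTGG where the site lies on the other strand.
Bard1, chr1:71103148-71103207, minus strand, site from 209 bases before the start: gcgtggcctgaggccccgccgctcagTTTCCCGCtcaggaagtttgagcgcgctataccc
Brca2, chr5:150522427-150522486, plus strand, site from 168 bases before the start: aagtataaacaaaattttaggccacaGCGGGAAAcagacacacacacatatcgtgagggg
Chek2, chr5:110839805-110839864, plus strand, site from 152 bases before the start: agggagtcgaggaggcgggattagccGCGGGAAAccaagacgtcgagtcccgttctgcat
Rad51c, chr11:87404952-87404985, minus strand, site from 5 bases before the start: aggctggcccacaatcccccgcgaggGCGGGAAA
Brca1, chr11:101552014-101552063, minus strand, box from 86 bases before the start: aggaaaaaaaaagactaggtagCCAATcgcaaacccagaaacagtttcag
Xrcc3, chr12:111813880-111813928, minus strand, box from 27 bases before the start: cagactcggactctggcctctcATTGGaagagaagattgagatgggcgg
The stretches of Bard1, Brca2, Chek2, Brca1 and Xrcc3 overlap no transcript of GENCODE M21, and that of Rad51c overlaps 3 bases of a 5′ untranslated exon. The window of Xrcc3 holds 6 CCAAT boxes and that of Brca1 holds 1. Brca2 and Xrcc3 have the windows whose first bases after the start occur in no GENCODE transcript of the gene. Distances above are counted from the start in the RefSeq window, which can differ from that of GENCODE. For Bard1, GENCODE puts the start at chr1:71103146, directly beside the printed stretch.

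Levels of the 35 genes were low to moderate. Over all 12 libraries the mean ran from 0.823 RPKM for Rad51b to 8.73 RPKM for Rbbp8, the end-resection factor also known as CtIP, and 6 members had a mean above 5.5 RPKM: Fance, Mre11a, Xrcc3, Nbn, Rad50 and Rbbp8. The spread over libraries was wide for most genes, so that neighbours in this order do not differ beyond it: Rad50 stood at 8.57 ± 2.41 and Rbbp8 at 8.73 ± 2.78 RPKM (SD, n = 12). The spread lay more between pairs than between the genotypes of a pair. Brca1, a ubiquitin ligase subunit that promotes end resection and recombination, stood at 4.14 to 8.79 RPKM in the 8 libraries of S0, S1, S2 and S4, at 0.984 and 0.591 RPKM in the S3 mutant and control, and at 0.433 and 0.664 RPKM in those of S5. Exo1, an exonuclease that lengthens resected ends, followed the same order with 1.93 to 4.54 RPKM in those 8 libraries, 0.322 and 0.223 in S3, and 0.103 and 0.229 in S5. Fancd2, the protein marked by the Fanconi core complex, gave 2.84 to 5.36 RPKM against 0.804 and 0.423 in S3 and 0.116 and 0.475 in S5. Both genotypes of S3 and S5 were thus below every other library for these 3 genes.

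**Figure D1:**
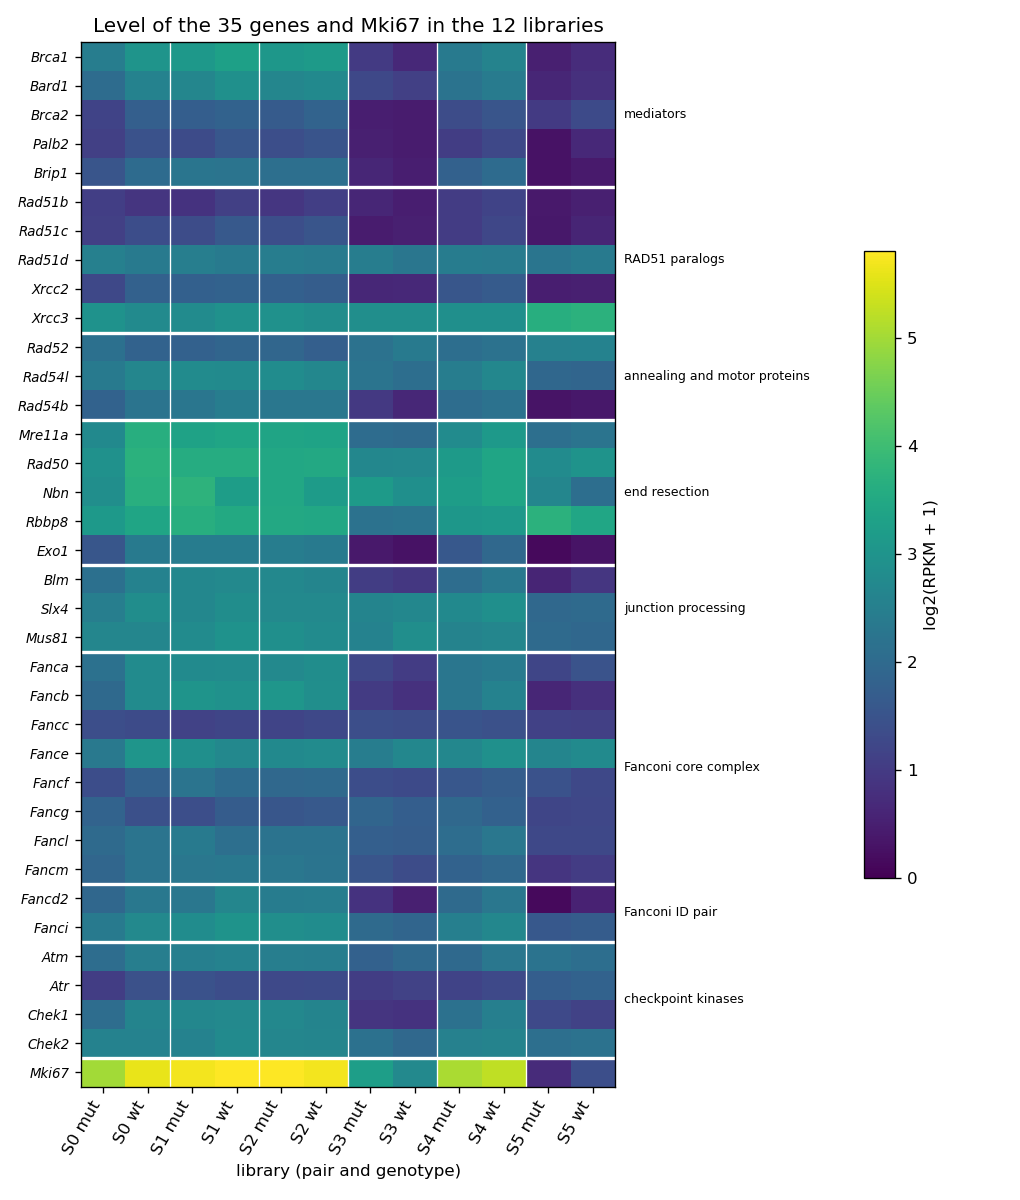
Level of the 35 genes and of Mki67 as log2(RPKM + 1), by color, in the 12 libraries (columns, mutant and control of each pair side by side), grouped by role (rows). The columns of S3 and S5 are darker than the others for most rows, and Xrcc3, Rad52 and Atr are brighter in S5.

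Mki67, a nuclear protein of cycling cells and the growth measure used here, ranked the pairs in the same way. It stood at 31.2 to 55.0 RPKM in the libraries of S0, S1, S2 and S4, at 8.52 and 5.70 RPKM in the S3 mutant and control, and at 0.631 and 1.65 RPKM in those of S5. S3 and S5 were the lowest 2 pairs by mean level for 27 of 35 members, as they were for Mki67, against 19.5% of all 15508 genes at 1 RPKM or more in at least 2 libraries. The 8 exceptions were Xrcc3, Rad52, Rbbp8, Mus81, Fancc, Fancg, Atm and Atr. S1 was the highest pair for 25 members. The lowest pair was S5 for 20 members, S3 for 14 and S2 for 1, whereas S5 was lowest for 36.4% and S3 for 25.3% of all genes. Rad51d, a recombinase paralog, hardly varied: its pair means in S0 to S5 lay between 91.0 and 101% of that in S1, while those of Brca1 were 9.61% in S3 and 6.69% in S5. Xrcc3 was as even over S0 to S4, with pair means of 6.34 to 6.41 RPKM. In such bulk libraries, fewer dividing cells and less RNA per cell cannot be told apart.

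Between the genotypes, no member passed limma at an adjusted p under 0.05, and neither did any of the 13600 genes tested (0.0%). These are the genes at 1 RPKM or more in at least 6 of 12 libraries; 34 members are among them and Rad51b is not. Before adjustment, 761 genes had p under 0.05, of which 520 were higher and 241 lower in SPOPmut. The members' mean differences lay on the low side: 27 of 34 were lower in SPOPmut on average, beside 49.8% of all genes, with a median of -0.11 on the log2(RPKM + 1) scale beside 0.00055 for all genes. The 7 members with a higher mean were Rad51d, Xrcc3, Rad52, Nbn, Rbbp8, Fancc and Fancg. For genes of low level this scale makes a change look smaller than it is. The median rests largely on pair S0: without it, 27 of 34 were still lower on average but the median was -0.044, and with pairs weighted by their residual spread it was -0.015 with 21 of 34 lower. S0 is also the pair whose mutant and control deviated together least across genes (correlation 0.06). Among cell type markers, 9 of 10 luminal and 9 of 12 fibroblast and smooth muscle markers were higher in SPOPmut on average, and their summed levels were 59.3 to 1540 against 51.4 to 1530 RPKM and 4.63 to 2860 against 2.87 to 2220 RPKM; their part in the members' differences was not tested.

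All 5 mediators were lower in SPOPmut on average, with a median difference of -0.18. Brca2, which loads the recombinase onto single strands, stood in SPOPmut and SPOPwt at 1.23 and 2.37 RPKM in S0, 2.32 and 2.55 in S1, 2.18 and 2.58 in S2, 0.404 and 0.350 in S3, 1.54 and 1.91 in S4, and 0.975 and 1.46 in S5. It was lower in the mutant in 5 of 6 pairs, with S3 the exception, while the groups as a whole overlapped. The mean difference was -0.22 (SE 0.0899, 95% confidence interval -0.43 to -0.014, limma adjusted p = 0.886). Palb2, which bridges BRCA1 and BRCA2, stood at 1.13 and 1.77 RPKM in S0, 1.51 and 1.97 in S1, 1.62 and 1.83 in S2, 0.429 and 0.358 in S3, 1.09 and 1.41 in S4, and 0.218 and 0.587 in S5. It too was lower in every pair but S3, by -0.21 on average (SE 0.0786, limma adjusted p = 0.881). With pair weights the difference was -0.14 for Brca2 and -0.13 for Palb2. Brca1 differed by -0.16 (SE 0.107) and its partner Bard1 by -0.18 (SE 0.0894), each lower in 5 of 6 pairs, and the helicase Brip1 by -0.12 (SE 0.0921), lower in 3 of 6.

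Among the recombinase paralogs, which assist filament formation, Rad51c had the smallest p of all members. It stood in SPOPmut and SPOPwt at 1.16 and 1.57 RPKM in S0, 1.53 and 2.08 in S1, 1.63 and 1.91 in S2, 0.365 and 0.435 in S3, 1.04 and 1.36 in S4, and 0.306 and 0.507 in S5. The mutant library was the lower one in each pair, though the spread between pairs made the groups overlap. The mean difference was -0.20 (SE 0.0612, 95% confidence interval -0.34 to -0.055, limma adjusted p = 0.881), and over the other settings tried the adjusted p ran from 0.167 to 1. Rad51c lies at chr11:87376645-87404954 (minus strand, GRCm38). Rad51c, Palb2 and Brca2 were the 3 members with an unadjusted p under 0.05, all lower in SPOPmut, beside 1.77% of all genes. Leaving out a pair gave 1 (without S0, S4 or S5) to 6 (without S3) such members. The share of all genes was not counted with a pair left out. Rad51c and Rad50 were the 2 members lower in all 6 pairs, beside 1.68% of all genes, and 13 of 34 were lower in at least 5 pairs, beside 9.67%. No member was higher in all 6 pairs, beside 3.62%. Xrcc2 differed by -0.12 (SE 0.0884), with 2.49 RPKM in the S0 control and 1.40 in its mutant but differences of -0.13 to 0.056 in the other pairs, and by -0.035 without S0. Rad51d (0.060, SE 0.0645) and Xrcc3 (0.0080, SE 0.0636) had small differences, and that of Xrcc3 changed sign with quantile normalization or without S0 or S2. Rad51b averaged 0.783 ± 0.307 RPKM in mutant and 0.864 ± 0.368 RPKM in control libraries (SD, n = 6) and was lower in 4 of 6 pairs.

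The remaining groups gave no difference that passed the test. In end resection, Mre11a, the nuclease of the complex that first binds a break, stood in SPOPmut and SPOPwt at 5.74 and 11.4 RPKM in S0, 9.18 and 9.72 in S1, 9.45 and 9.33 in S2, 3.12 and 3.01 in S3, and 3.33 and 3.73 in S5. S4, with 7.64 RPKM in its control, differed by -0.30, S0 by -0.87 and the other pairs by -0.13 to 0.039; the mean difference was -0.22 (SE 0.121). Rad50, the subunit that tethers the ends, ran from 5.45 to 11.0 RPKM (median 7.33) in the mutants and had a control median of 10.0 RPKM, with a mean difference of -0.20 (SE 0.107). The difference was -0.77 in S0, -0.24 in S4 and -0.18 in S5, and between -0.017 and -0.0079 in the other pairs, so that the count of 6 pairs includes 3 near 0. Nbn, which recruits the kinase ATM to this complex, spread most between pairs, from -0.80 in S0 to 0.58 in S5, with a mean of 0.11 (SE 0.173). Exo1 differed by -0.19 (SE 0.127) and Rbbp8 by 0.0055 (SE 0.0791). Without S0 the difference was -0.090 for Mre11a, -0.092 for Rad50 and 0.30 for Nbn.

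In junction processing, which resolves the joined chromosomes at the end of the repair, all 3 genes had lower means. The helicase Blm ran from 0.515 to 5.54 RPKM (median 3.31) in SPOPmut and from 0.900 to 5.69 (median 4.49) in SPOPwt, with a difference of -0.15 (SE 0.0915). Slx4, a scaffold for nucleases, ran from 2.89 to 5.74 (median 5.26) and from 2.99 to 6.37 RPKM (median 5.88), with a difference of -0.13 (SE 0.0676). Mus81, a nuclease, differed by -0.068 (SE 0.0713). The median of the annealing and motor genes was -0.033, beside -0.13 for junction processing. Rad54b, a motor protein that remodels the paired strands, ran from 0.245 to 3.91 RPKM (median 2.87) in SPOPmut and from 0.298 to 4.50 (median 3.64) in SPOPwt, with a difference of -0.078 (SE 0.0943). Its relative Rad54l ran from 2.86 to 6.13 (median 4.35) and from 2.71 to 5.91 RPKM (median 5.42), with a difference of -0.033 (SE 0.0809) that changed sign without S0 or S4 and with pair weights. Rad52 differed by 0.017 (SE 0.0819). Without S0 the difference was -0.086 for Blm, -0.083 for Slx4 and -0.011 for Rad54b, and with pair weights -0.0065, -0.059 and -0.00037. In all of these the groups overlapped over most of their range.

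Of the 8 genes of the Fanconi core complex, 6 had lower means. Fance, the adaptor between the core complex and FANCD2, ran from 4.13 to 6.38 RPKM (median 5.33) in SPOPmut and from 5.48 to 7.17 (median 5.93) in SPOPwt, with a difference of -0.20 (SE 0.103) and a lower mutant in 5 of 6 pairs. Fanca ran from 1.32 to 5.87 (median 3.67) and from 1.06 to 6.15 RPKM (median 5.12), with a difference of -0.16 (SE 0.104). Without S0 the difference was -0.10 for Fance and -0.066 for Fanca, and with pair weights -0.090 and -0.061. Fancl, the ubiquitin ligase of the complex, was at -0.023 (SE 0.0811), a value that changed sign without S0 or S4 and with pair weights. Fancb (-0.15, SE 0.134), Fancm (-0.058, SE 0.0798) and Fancf (-0.022, SE 0.0943) were lower on average, and Fancc (0.015, SE 0.0595) and Fancg (0.064, SE 0.0986) higher. Fancd2 ran from 0.116 to 4.38 RPKM (median 2.93) in SPOPmut and from 0.423 to 5.36 (median 4.00) in SPOPwt, with a difference of -0.19 (SE 0.110) and a lower mutant in every pair but S3. Its partner Fanci ran from 2.03 to 6.26 (median 4.46) and from 2.24 to 6.85 RPKM (median 5.54), with a difference of -0.10 (SE 0.0746). Without S0 Fanci was at -0.057, without S3 Fancd2 was at -0.30, and with pair weights they were at -0.019 and -0.074.

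The 4 checkpoint kinases, which halt the cell cycle while DNA is repaired, also had lower means. Atm, which answers to double-strand breaks, ran from 2.50 to 4.69 RPKM (median 3.42) in SPOPmut and from 2.93 to 4.92 (median 4.21) in SPOPwt, with a difference of -0.13 (SE 0.0835). Atr ran from 1.08 to 2.34 (median 1.33) and from 1.21 to 2.54 RPKM (median 1.53), with a difference of -0.10 (SE 0.0752). Without S0 the difference was -0.081 for Atm and -0.044 for Atr. Chek1, the kinase downstream of ATR, differed by -0.10 (SE 0.106) and Chek2, downstream of ATM, by -0.0082 (SE 0.0690). The kit does not mark strand, and exons of an opposite-strand gene cover 16.4% of the exon length of Fancc (Gm16133), 16.0% of Fanci (Polg), 15.4% of Rad54l (Lrrc41), 15.0% of Fancf (Gas2) and 13.7% of Fancl (Vrk2). Rad54b shares 35.8% with Fsbp on the same strand, and reads of such partners cannot be told apart.

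Pair by pair, the members' differences lay on the same side as that of Mki67 in most pairs. In S0, Mki67 was 31.2 RPKM in the mutant and 47.9 in the control, a difference of -0.60, and 28 of 34 members were lower (50.8% of all genes), with a median of -0.39 and 12 members below -0.5. The lowest was Mre11a at -0.87 and the highest Fancg at 0.45. The libraries of S0 are paired by their labels only. They deviated together with a correlation of 0.06 across genes, against 0.753 to 0.954 in the other pairs. The differences in S0 are thus less surely those of a matched pair. In S4, Mki67 differed by -0.19, and 30 of 34 members were lower (58.0% of all genes), with a median of -0.19. In S1, Mki67 differed by -0.087 and 23 of 34 members were lower (41.1% of all genes), with a median of -0.055, while 15 of 40 proliferation genes were lower there, with a median of 0.049. In S2, Mki67 was slightly higher in the mutant (0.11), and 15 of 34 members were lower (34.3% of all genes), with a median of 0.0090. S3 was the pair in which Mki67 was higher in the mutant by the largest margin, 8.52 against 5.70 RPKM or 0.51, and there 10 of 34 members were lower (48.7% of all genes), with a median of 0.074, from Mus81 at -0.30 to Fancd2 at 0.34. In S5, Mki67 differed by -0.70 at levels of 0.631 and 1.65 RPKM, and 25 of 34 members were lower (50.1% of all genes), with a median of -0.089.

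**Figure D2:**
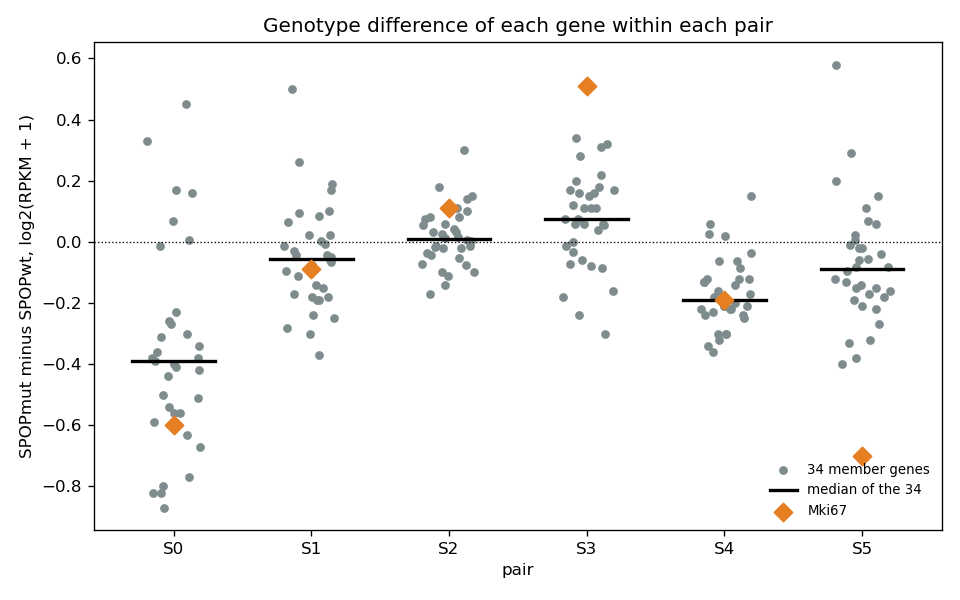
SPOPmut minus SPOPwt on the log2(RPKM + 1) scale (vertical axis) for the 34 tested members (grey points), their median (black bar) and Mki67 (orange diamond) in each pair (horizontal axis). The median is lowest in S0 (-0.39) and highest in S3 (0.074), where Mki67 is at -0.60 and 0.51.

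Mre11a, Blm, Fancm and Fanci had the sign of Mki67 in all 6 pairs, beside 1.96% of all genes, and 18 of 34 members had it in at least 5 pairs, beside 13.8%. Some of these signs rest on differences near 0. Mre11a differed by 0.017 in S2 and 0.039 in S3, Fanci by 0.031 in S2, and Fancm by -0.015 and Blm by -0.043 in S1. Mki67 itself differed by only -0.087 in S1. Rad51c was not among the 18: it was also lower in S2 (-0.14) and S3 (-0.073), where Mki67 was higher in the mutant. Fancc had the sign of Mki67 in 2 of 6 pairs, and Rad51d in 3.

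A fit with Mki67 as a further term asked how far each gene moved with the growth marker inside pairs and at equal genotype. The slope gives the change in a gene per unit of log2(Mki67 RPKM + 1). It was positive for 28 of 34 members, beside 52.4% of all genes, with a median of 0.24 beside 0.018. None of the 13599 genes passed limma at an adjusted p under 0.05 (0.0%), members included, and 1091 had an unadjusted p under 0.05 (678 positive, 413 negative). Of the members, 7 had an unadjusted p under 0.05 with a positive slope, beside 4.99% of all genes: Fancd2 (0.58, SE 0.180), Blm (0.46, SE 0.156), Brca1 (0.54, SE 0.183), Fanca (0.51, SE 0.183), Palb2 (0.38, SE 0.144), Brca2 (0.42, SE 0.169) and Fancb (0.62, SE 0.258), with adjusted p of 0.581 to 0.606. The count at an unadjusted p under 0.05 rests on few pairs. Without S3 it was 0, though the median slope was 0.23 and 27 of 35 members had a positive one. Without S5 the count was 16 with a median of 0.43, and without S0, S1, S2 or S4 it was 3 to 5. With the mean of the proliferation genes in place of Mki67 it was 13, with a median of 0.36. The median was 0.14 without S0. The share of all genes at an unadjusted p under 0.05 was not counted under these other settings. These counts are therefore not a result about the members. The 6 members of negative slope were Xrcc3, Rad52, Rbbp8, Mus81, Fancc and Fancg, none with an unadjusted p under 0.05. For comparison, 39 of 39 other proliferation genes had a positive slope, with a median of 0.82 and 32 at an unadjusted p under 0.05. When the pairs were not held apart, so that the large level differences of S3 and S5 entered the slope, 25 members passed with a positive slope and 2, Xrcc3 and Rad52, with a negative one, among 3530 and 2575 genes.

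With Mki67 in the fit, the median genotype difference of the members went from -0.11 to -0.068. Of 34 members, 26 kept their sign and came nearer to 0, 3 (Rad51d, Nbn and Mus81) kept it and moved away, and 5 with differences near 0 (Rad52, Rad54l, Rbbp8, Fancl and Chek2) changed sign. At equal Mki67, 26 of 34 members were lower in SPOPmut, beside 47.0% of all genes, whose median was 0.0064. Without S0 the members' median was -0.040 and 23 of 34 were lower. With the mean of the proliferation genes in place of Mki67 it was -0.051, beside 0.011 for all genes, and 23 of 34 were lower. The share of all genes that were lower was not counted in either of these fits. None of the 13599 genes passed limma (0.0%), and 494 had an unadjusted p under 0.05. Rad51c kept most of its difference, -0.18 (SE 0.0653, limma adjusted p = 1), and was the 1 member with an unadjusted p under 0.05. Palb2 stood at -0.15 (SE 0.0634) and Brca2 at -0.15 (SE 0.0747), while Brca1 went from -0.16 to -0.071 (SE 0.0806), Exo1 from -0.19 to -0.098 (SE 0.113) and Fancd2 from -0.19 to -0.10 (SE 0.0793). The difference between the 2 fits was not tested.

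**Figure D3:**
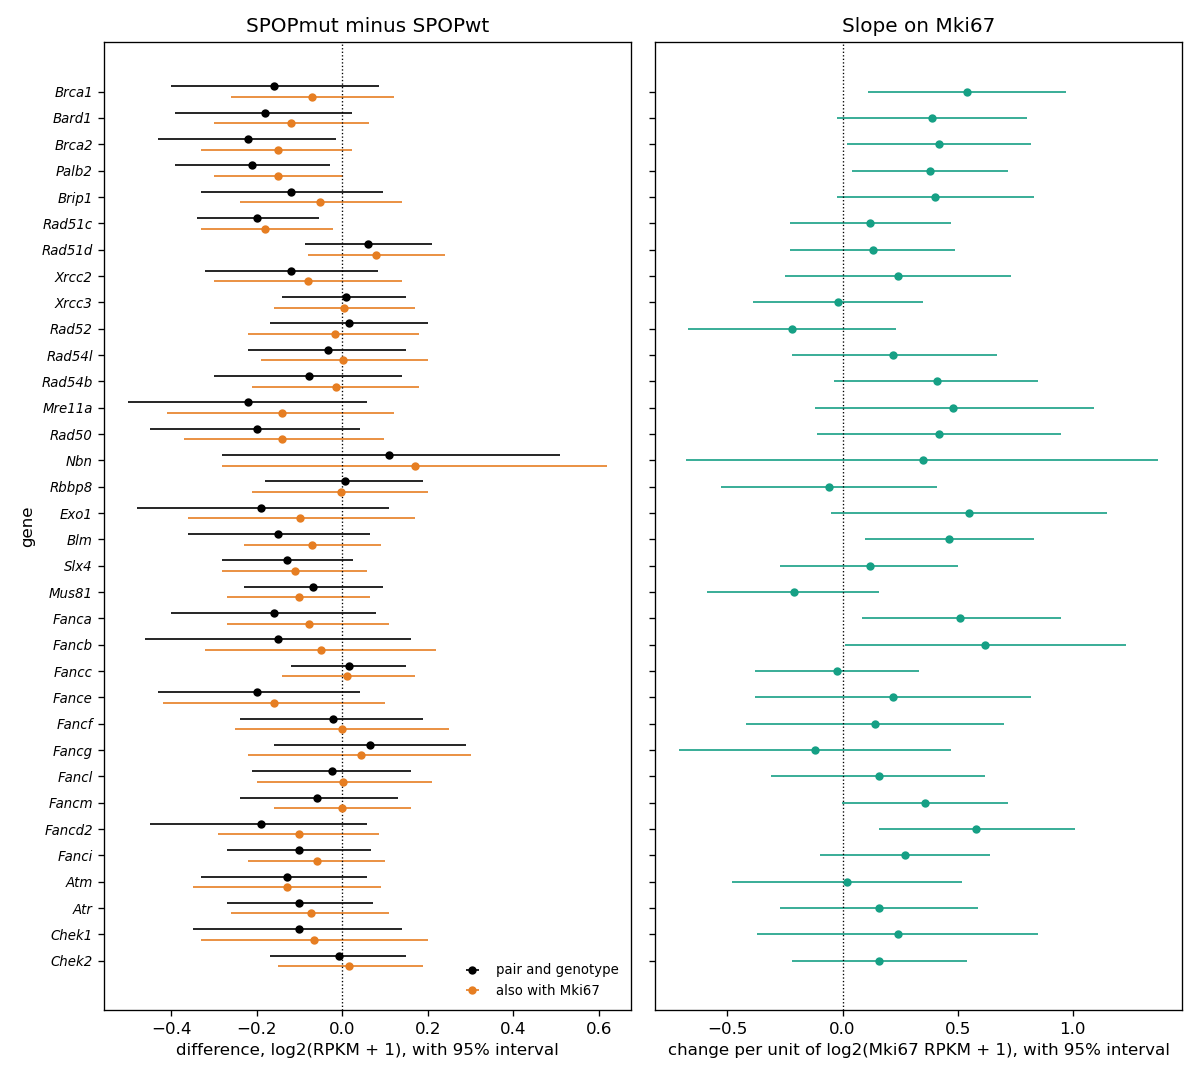
Left, SPOPmut minus SPOPwt on the log2(RPKM + 1) scale for the 34 tested members, with pair and genotype in the fit (black) and with Mki67 added (orange); right, the slope on Mki67. Points are limma estimates and bars are 95% confidence intervals; most orange points lie nearer 0 than the black ones, and the interval of Rad51c stays below 0 in both fits.

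Other repair genes were set beside the members, from lists chosen for their function. Of 56 tested genes of recombination and crosslink repair that are no members, 40 were lower in SPOPmut on average, with a median of -0.082 and none past limma's threshold. Those of smallest p were Zswim7, a partner of the recombinase paralogs (-0.30, SE 0.0882, limma adjusted p = 0.881), and the helicase Mcm8 (-0.25, SE 0.0915). Of 17 end joining genes, which seal breaks without a template, 9 were lower, with a median of -0.011; Dclre1c, the nuclease Artemis, was higher (0.27, SE 0.0943) without passing. All 6 tested mismatch repair genes were lower, with a median of -0.049, among them Pms2 (-0.11, SE 0.0859). Of 25 excision repair genes, 18 were lower, with a median of -0.040, led by the glycosylases Nthl1 (-0.28, SE 0.0695, adjusted p = 0.769) and Mpg (-0.12, SE 0.0599). The 40 proliferation genes all had lower means in SPOPmut, with a median of -0.16, but not in every pair: 40 were lower in S0 (median -0.84), 40 in S4 and 36 in S5, against 15 in S1, 7 in S2 and 2 in S3 (median 0.43). Those of smallest p were the transcription factor E2f1 (-0.33, SE 0.131) and the cyclin Ccne1 (-0.45, SE 0.230). The median of the members thus lay between that of the proliferation genes and that of the other recombination genes, and none of the genes in these lists passed the test.

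Pair S5 was then compared with S0 to S4 by pair means, 1 value against 5, with S5 assumed to vary like the other pairs. Of 15508 genes, 4656 passed limma at an adjusted p under 0.05 (30.0%), and 6 of 35 members were among them. Lower in S5 were 4 members, beside 13.6% of all genes, and higher were 2, beside 16.4%. The members' median difference was -0.75, beside -0.039 for all genes. Both libraries of S5 lay below all 10 others for 15 of 35 members, beside 27.0% of all genes, and above all 10 others for 3, beside 24.9%. The 15 were Bard1, Brip1, Xrcc2, Rad54l, Rad54b, Nbn, Blm, Slx4, Mus81, Fancb, Fancc, Fancg, Fancl, Fancm and Fanci, and the 3 were Xrcc3, Rad52 and Atr. In both S5 libraries 12 of 35 members stood below 1 RPKM, beside 12.4% of all genes.

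Xrcc3, the paralog that pairs with RAD51C, was the member with the smallest p. Its 10 values in S0 to S4 ran from 5.90 to 6.78 RPKM with a median of 6.35, and those of the S5 mutant and control were 11.5 and 12.3 RPKM, so the groups did not overlap. The difference was 0.81 (SE 0.101, 95% confidence interval 0.56 to 1.06, limma adjusted p = 0.00321). Atr, the kinase that answers to single-stranded DNA, ran from 1.08 to 1.77 RPKM (median 1.43) in the first 5 pairs, against 2.34 and 2.54 RPKM in S5, a difference of 0.53 (SE 0.150, limma adjusted p = 0.0473). The call of Atr was lost with a pseudocount of 0.1 (adjusted p = 0.0624), with quantile normalization (0.0780) and without S0, S1, S2 or S4 (0.0578 to 0.0989). Rad52, an annealing protein, had 4.89 and 4.92 RPKM in S5 and 2.39 to 4.18 RPKM elsewhere (0.54, SE 0.207, limma adjusted p = 0.104). Xrcc3 lies at chr12:111803192-111813873 (minus strand) and Atr at chr9:95857597-95951781 (plus strand, GRCm38).

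Slx4 and Mus81, which cut branched DNA together, fell in S5. Slx4 was at 2.89 and 2.99 RPKM in the S5 mutant and control, below the 4.58 to 6.37 RPKM (median 5.63) of the other libraries, a difference of -0.75 (SE 0.122, limma adjusted p = 0.00807). Mus81 was at 3.01 and 2.83 RPKM against 4.98 to 6.84 RPKM (median 5.65), a difference of -0.78 (SE 0.145, limma adjusted p = 0.0127). In S3 Slx4 was at 5.12 and 5.47 RPKM and Mus81 at 4.98 and 6.34 RPKM, so both genes stood lower in S5 than in S3; S3 was the pair next to S5 in the order of Slx4 levels, at 91.2% of the pair mean in S1 where S5 was at 50.6%. Nbn was at 5.39 and 3.28 RPKM in S5 and at 6.27 to 12.4 RPKM (median 8.45) elsewhere (-0.90, SE 0.186, limma adjusted p = 0.0186), a call lost without S2 (adjusted p = 0.0515). Fancl was at 1.41 and 1.39 RPKM in S5 and at 2.27 to 4.23 RPKM (median 3.49) elsewhere (-0.84, SE 0.222, limma adjusted p = 0.0389), a call lost with quantile normalization (0.0519) and without S0, S1, S2 or S4 (0.0801 to 0.0852). Slx4 lies at chr16:3979105-4003770, Mus81 at chr19:5482345-5488402 (both minus strand), Nbn at chr4:15957925-15992589 and Fancl at chr11:26386135-26471876 (both plus strand, GRCm38).

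**Figure D4:**
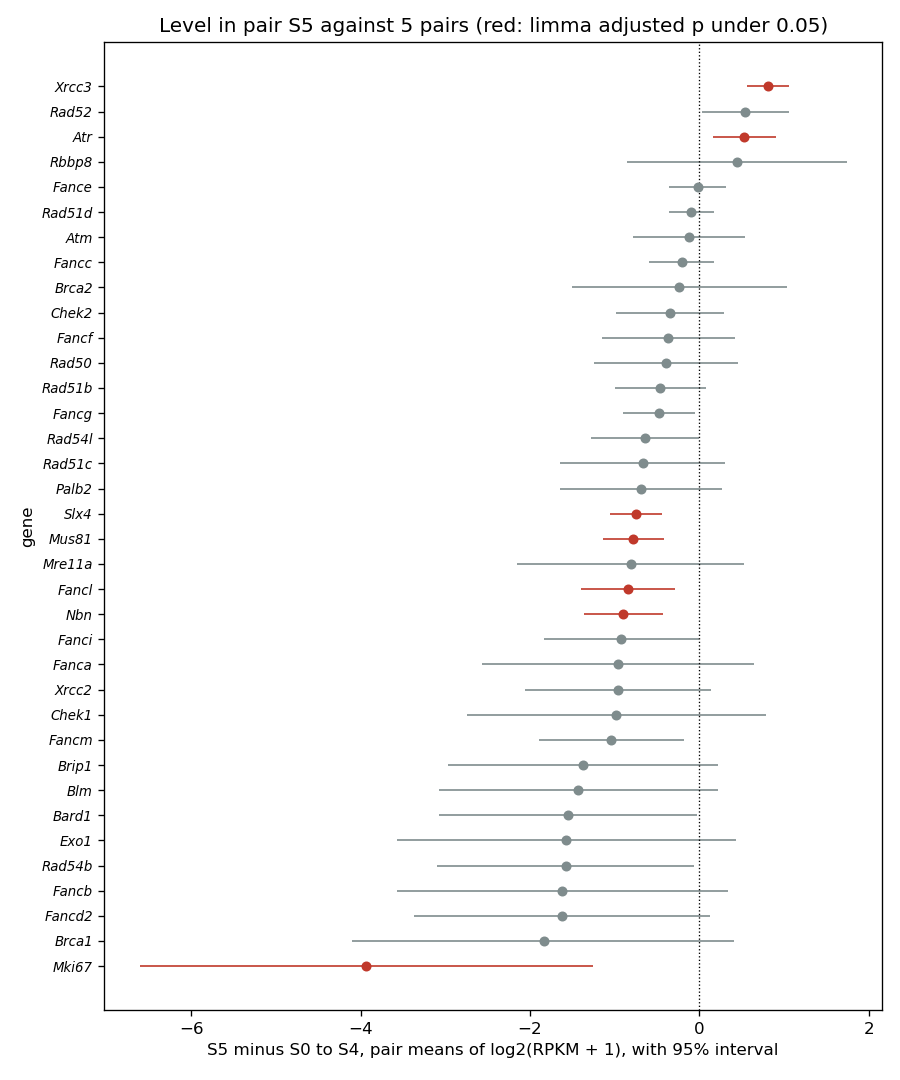
Pair S5 minus S0 to S4, from pair means of log2(RPKM + 1), for the 35 members and Mki67 (rows, sorted); points are limma estimates with 95% confidence intervals, in red where the adjusted p is under 0.05. Xrcc3 and Atr lie to the right of 0, Slx4, Mus81, Nbn and Fancl to the left, and Brca1 has the lowest estimate of the members (-1.84) with a wide interval.

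Several members with lower estimates in S5 did not pass, and S3 was low for them as well. Brca1 differed by -1.84 (SE 0.902, limma adjusted p = 0.180), Fancd2 by -1.62 (SE 0.700, adjusted p = 0.139), Fancb by -1.62 (SE 0.784, adjusted p = 0.177), Rad54b by -1.58 (SE 0.608, adjusted p = 0.107) and Exo1 by -1.57 (SE 0.801, adjusted p = 0.195). Without S3 the members' median difference was -0.84, beside -0.037 for all genes, and without S2 it was -0.71, beside -0.030. How many members were called depended on which pair was left out, most of all on S3. Among the mediators, Brca2 kept the largest part of its S1 level in S5. Its pair mean in S5 was 50.1% of that in S1, while that of Palb2 was 23.2%, of Bard1 10.9%, of Brip1 7.29% and of Brca1 6.69%. At 0.975 and 1.46 RPKM in S5, Brca2 stood above its S3 values of 0.404 and 0.350. Palb2 was also lowest in S3 by pair mean, but by little, at 0.394 RPKM against 0.402 in S5. Rbbp8 was at 3.54 and 3.73 RPKM in S3 and at 12.3 and 9.86 in S5, beside 7.44 to 11.4 in the others. Mki67 was lower in S5 by -3.94 (SE 1.07, limma adjusted p = 0.0429), and 11 of 40 proliferation genes passed as lower, with a median of -2.46. The cell type markers moved with S5 too: 8 of 8 basal and 7 of 9 tested luminal markers passed as higher and 7 of 10 tested fibroblast and smooth muscle markers as lower. Growth, cell type and, if S5 is the pair of model B, the model cannot be told apart in this comparison.

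**Figure D5:**
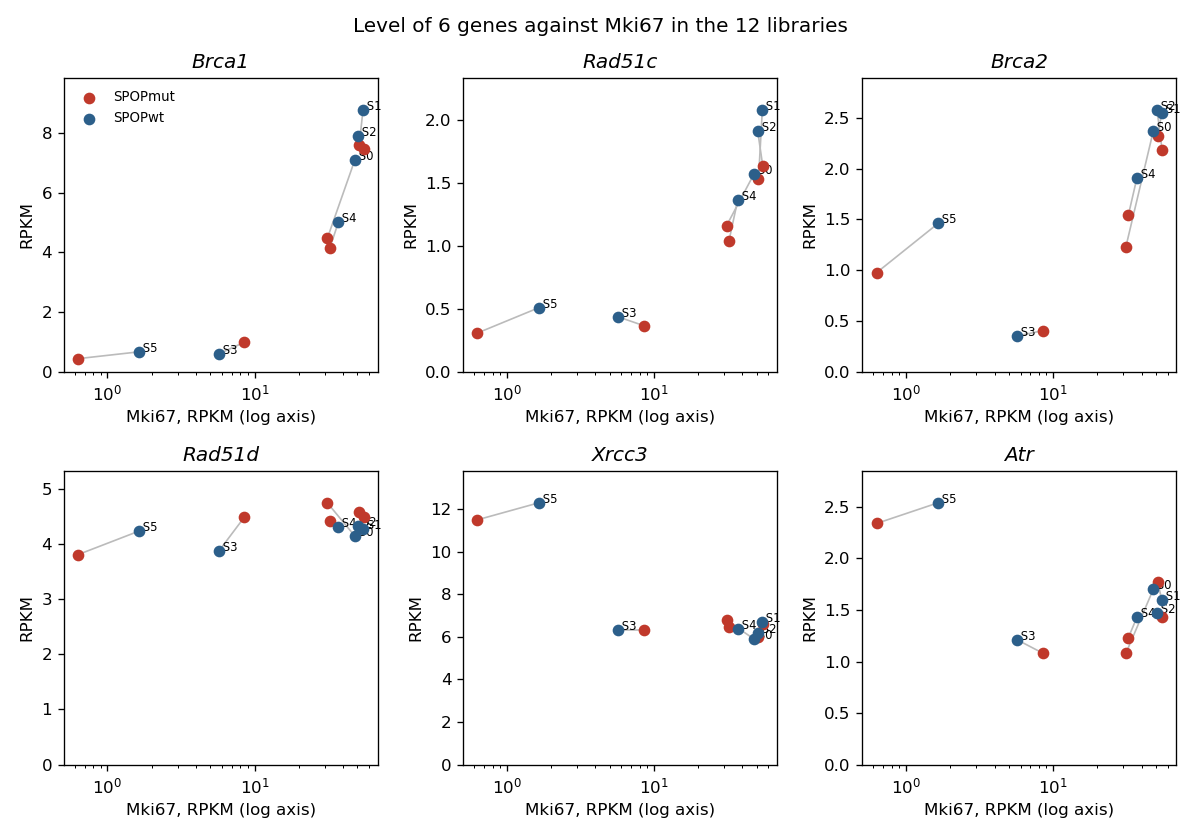
Level of 6 members (vertical axis, RPKM from 0) against Mki67 (horizontal axis, RPKM, log axis) in the 12 libraries, with mutant (red) and control (blue) of a pair joined by a line. Brca1 and Rad51c are lowest in S3 and S5, the pairs of lowest Mki67; Brca2 is lowest in S3, and its S5 control (1.46 RPKM) stands above the S0 mutant (1.23 RPKM). Rad51d lies between 3.81 and 4.75 RPKM throughout, and Xrcc3 and Atr are highest in S5, where Mki67 is lowest.

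The genotype difference of the members in S5 was not shown to depart from that in the other pairs. A term for genotype by S5 passed limma in 4 of 13600 genes (0.0294%) and in 0 of 34 members, and 1129 genes but no member had an unadjusted p under 0.05. The members' estimates ran from -0.25 (Fancd2, SE 0.302) to 0.56 (Nbn, SE 0.465), with a median of 0.0096. The member of smallest p was Rbbp8, at 12.3 RPKM in the S5 mutant and 9.86 in its control (0.34, SE 0.178, limma adjusted p = 0.745). With 1 pair on one side the intervals are wide: that of Rad51c ran from -0.40 to 0.38 and that of Brca1 from -0.81 to 0.66.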

How the data were processed

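RNA was measured in 12 libraries by paired-end sequencing of 51 bases with the TruSeq RNA kit, per the labels' protocols. The values deposited by the authors are RPKM per gene name, 1 table per library; the submitters' processing notes name builds mm10 and GRCm38 and the aligner STAR 2.4.0j. Counting program and annotation: not given in the sources used here. The steps between low values and the exon lengths of GENCODE M21 gave an estimate of depth; that annotation holds 39432 of the 43243 names (91.2%) and all 35 members. Only 25.0 to 28.1% of low values lay within 0.04 of a whole read, where 8% would by chance, so tests on counts and counting intervals were left out.

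Values were taken as log2(RPKM + 1) and fitted with limma 3.58.1 in R 4.3.3 (trended, robust prior; two-sided; Benjamini-Hochberg over all genes kept; threshold 0.05). Genotype, slope and interaction fits used genes at 1 RPKM in at least 6 libraries and a pair term; S5 levels used pair means and genes at 1 RPKM in at least 2 libraries. Tables and plots used Python 3.11.15, pandas 2.3.3, numpy 2.4.6 and matplotlib 3.10.9. The genotype, slope, S5 level and interaction fits were run on simulated data, and the genotype fit at equal Mki67 was not. The simulated data were kinder than the real data. Noise was lowered for the slope, and for S5 levels the spread between pairs was set to the residual noise. They therefore check the code and not the power of the tests here. Pairing follows the labels, which speak of pairs and number both groups S0 to S5; same-numbered libraries deviated together with correlations of 0.753 to 0.954 across genes in S1 to S5 but 0.060 in S0. No libraries held identical values and none were merged. Closeness within a genotype was measured by the squared difference in estimated reads over its counting variance, as a median over genes. S1 and S2 lay nearest, at 1.837 for the mutants and 1.085 for the controls. All other pairings gave 6.457 or more. Counts, SE and p-values over 6 pairs treat S1 and S2 as separate pairs, which the labels do not establish. Named genes were those past a threshold in any test, otherwise the 2 of smallest p in each role or list; further members were chosen after their values were seen, and some genes this rule names are not reported here. The members, lists and tests were chosen with earlier results of these data known. Alternatives were another pseudocount, no filter, quantile normalization, no pair term, pair weights, another growth measure and leaving out each pair.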

Additional observations from a re-analysis of the deposited data

Results flagged for a closer look

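In 7 of 64 groups of 6 values examined for the named members and Mki67, 1 value lay far from the others (10.9%). Chance gives about 5% for independent groups set in advance, which these were not. Some members were named because they passed in the comparison of S5, and 4 of the 7 far values are from S5. The groups of a gene also share values, so the share says nothing about an excess. In the genotype differences per pair, S0 was the far value for Mre11a (-0.87), Rad50 (-0.77) and Xrcc2 (-0.54), each with the lower level in the mutant; in the other pairs these genes differed by -0.30 to 0.056. In the levels, S5 was the far library for Xrcc3 in SPOPmut (11.5 RPKM) and in SPOPwt (12.3 RPKM), for Atr in SPOPwt (2.54 RPKM, higher) and for Slx4 in SPOPwt (2.99 RPKM, lower). The S0 mutant also had the lower Mki67 of its pair, and S5 differs from the other pairs in cell type markers; the part of either in these values was not tested.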

How the results depend on the processing

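Between the genotypes, 0 genes passed in either direction under every setting except pair weights, with which 7 genes passed as higher and 2 as lower, none of them a member. Of the named members, 3 with differences near 0 changed sign: Xrcc3 (-0.0087 with quantile normalization; -0.025 to 0.038 over pairs left out), Rad54l (0.062 with pair weights; -0.068 to 0.021) and Fancl (0.0078 with pair weights; -0.080 to 0.018). For the slope on Mki67, leaving out the replicate block gave 3530 genes higher and 2575 lower, with 25 and 2 members; for the genotype difference the same change left 0 genes called. With the mean of the proliferation genes in place of Mki67, 20 genes passed with a positive and 1 with a negative slope, no member among them. The members' median slope ran from 0.14 without S0 to 0.43 without S5.

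For levels in S5, members called higher fell from 2 to 1 with a pseudocount of 0.1 and with quantile normalization, and ran from 1 to 3 over pairs left out; members called lower ran from 2 to 24 and genes called lower from 1354 to 3804, while with no filter 6208 genes passed as higher. For the genotype difference in S5, genes called lower numbered 2 with a pseudocount of 0.1 and 0 with quantile normalization, 1598 higher and 1169 lower passed with no filter, and 0 and 0 passed without the replicate block; over pairs left out the counts ran from 0 to 32 higher and 0 to 160 lower. No member was called in that comparison under any setting. The causes were not tested. The depth behind each value is an estimate, 6 pairs limit what can be called, and levels near 1 RPKM have little room on the log2 scale.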
